A study of Mus musculus with 6 samples.

Results

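The transcripts described here encode vimentin, nestin and desmin, the nuclear lamins A/C, B1 and B2, and the filament linkers plectin and desmoplakin (Vim, Nes, Des, Lmna, Lmnb1, Lmnb2, Plec and Dsp). They were taken from the intensity table of an Illumina mouse bead array by the gene symbol of each probe in the platform annotation. Of the 45281 probes of the array, 29 carried 1 of these symbols: 14 for Plec, 6 for Lmna, 2 each for Vim, Nes, Lmnb1 and Lmnb2, and 1 for Des. They cover 7 of the 19057 genes with a symbol of their own on the array. The annotation used here lists no probe under Dsp, so desmoplakin was not analysed here.

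The RNA came from murine cancer cells that carry the rat her-2/neu oncogene, a receptor tyrosine kinase gene. One group was exposed to 8 µM withaferin A, a steroid-like lactone made by Withania somnifera, for 6 h (3 arrays), and the other was left untreated (3 arrays). Cells of both groups grew in medium with 20% serum, and per the labels the replicates were made at passages 2, 3 and 4. The labels do not say which replicate came from which passage or whether the line is a clone, so p-values cover only the spread among the 6 arrays. The labels describe no vehicle for the untreated cells.

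Intermediate filaments are rope-like polymers that give cells and nuclei mechanical strength. Vimentin, desmin and nestin form or join filaments in the cytoplasm, the lamins line the inner face of the nuclear envelope, and plakins such as plectin and desmoplakin tie filaments to junctions, to the nucleus and to other parts of the cytoskeleton. Vimentin is a known protein target of withaferin A, which binds a cysteine of its rod domain, and the comparison below concerns the transcripts, not the proteins. Vimentin is typical of mesenchymal cells and of carcinoma cells that have lost epithelial traits.

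The promoters of Vim, the gene of the compound's target, and of Nes, the gene among these with the smallest adjusted p, are shown as the 250 bases upstream of the annotated start, on the + strand, from RefSeq with build GRCm38.p6. The Vim stretch is chr2:13574061-13574310 and the Nes stretch is chr3:87970843-87971092. Capitals mark matches, on both strands, to 6 short motifs.
Vim: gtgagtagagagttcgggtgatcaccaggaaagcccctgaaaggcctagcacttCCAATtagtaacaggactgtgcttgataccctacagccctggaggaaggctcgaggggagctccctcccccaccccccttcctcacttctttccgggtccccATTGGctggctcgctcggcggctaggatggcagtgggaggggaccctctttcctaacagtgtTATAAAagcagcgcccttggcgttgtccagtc
Nes: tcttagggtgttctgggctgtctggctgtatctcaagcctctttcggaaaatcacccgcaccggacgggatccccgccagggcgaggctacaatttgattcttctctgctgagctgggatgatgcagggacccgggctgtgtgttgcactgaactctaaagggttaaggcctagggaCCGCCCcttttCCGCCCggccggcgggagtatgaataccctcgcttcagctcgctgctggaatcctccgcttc

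The motifs searched were the TATA box (TATAAA), the CCAAT box (CCAAT), the GC box (GGGCGG), the AP-1 site (TGANTCA), the heat shock element (GAANNTTC) and the antioxidant response element (TGACNNNGC). In the Vim stretch the TATA box begins 32 bases upstream of the start, and CCAAT box matches begin 196 and 94 bases upstream. In the Nes stretch the GC box matches begin 73 and 62 bases upstream. The table of promoters matched 6 of the 8 genes with 8 start sites, of which 5 held a GC box, 2 a CCAAT box and 1 a TATA box. Over all 32851 promoters in the same window, 32.7% held a GC box, 33.8% a CCAAT box and 12.4% a TATA box. None of the 8 windows held the letters of the AP-1 site, the heat shock element or the antioxidant response element, which were found in 6.75%, 6.69% and 10.2% of all promoters. A match in these letters is a description of the sequence and not a binding site.

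Median intensity over all probes was 77.1 to 78.1 on withaferin A arrays and 77.9 to 81.9 on untreated arrays, and an array detected 18275 to 20104 probes at a p under 0.05. Every withaferin A array was dimmer at the tested probes (medians 191.8 to 202) than every untreated array (218.5 to 235.9) before normalization. Markers were summed as raw intensities, with 1 probe per gene. Of 9 luminal epithelial markers, 7 were detected on all 6 arrays and Epcam on none. The summed intensity of the luminal markers was 11700 to 14812 with withaferin A and 15628 to 19494 in untreated cells. After normalization, 0 of the 8 luminal markers tested had an adjusted p under 0.05 (median log2 change -0.16, 3 positive and 5 negative). Krt8, the brightest of them, had a log2 change of -0.14 (limma adjusted p = 0.665), and Krt18, the next brightest, had -0.70 (limma adjusted p = 0.0674). Of 6 basal and myoepithelial markers 1 was detected on all arrays and Krt5 and Myh11 on none (summed intensity 729.9 to 905.2 with withaferin A and 544.9 to 571.1 in untreated cells). Of 7 fibroblast markers 2 were, and Col1a1, Col3a1, Pdgfrb and Lum were detected on none (1974 to 2326 with withaferin A and 3780 to 5282 in untreated cells). Of 7 striated muscle markers, 1 was detected on all arrays and Myod1, Ckm, Acta1 and Actc1 on none (442.2 to 454.6 with withaferin A and 430.3 to 459 in untreated cells). None of the measured leukocyte or neural progenitor markers (4 each) was detected on any array, and of 5 endothelial markers 4 were detected on none and Kdr on 2. Among the tested markers of all lists, Krt14 rose and Trp63, Pdgfra and Dcn fell (limma adjusted p = 0.000761, 0.00154, 0.0327 and 0.00778). Trp63 was detected on 0 withaferin A arrays and 3 untreated arrays, so it was tested only through the group where it was higher. A second, dim Pdgfra probe had a log2 change of 0.016 (limma adjusted p = 0.965). The part of these marker differences in the results below was not tested.

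None of the filament and lamina genes passed the test. A probe was tested when its detection p was under 0.05 on at least 3 arrays, which 18 of the 29 probes met, for 6 genes. With limma and Benjamini-Hochberg adjustment over 19077 probes, 0 of the 6 genes had an adjusted p under 0.05, while 6.83% of all 9756 genes tested did, 2.81% higher and 4.02% lower. At the level of probes, 0 of 18 passed, against 5.90% of all tested probes, and 4 of 18 had an unadjusted p under 0.05, against 24.4%. At an unadjusted p under 0.05 the count of genes was 2 of 6 (Nes and Plec), against 26.0% of all genes. Both were called higher by 2 alternatives, a paired test on the deposited value table and array weights, which also called 27.5% and 22% of all genes. The estimate behind the array weights, here and below, stopped before it converged. The median log2 change of the 6 genes was 0.27, beside 0.0054 over all genes. It was 0.53 without untreated array 1, 0.09 without untreated array 2 and 0.18 without untreated array 3. Without normalization between arrays it was 0.06, beside -0.23 over all genes.

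**Figure D1:**
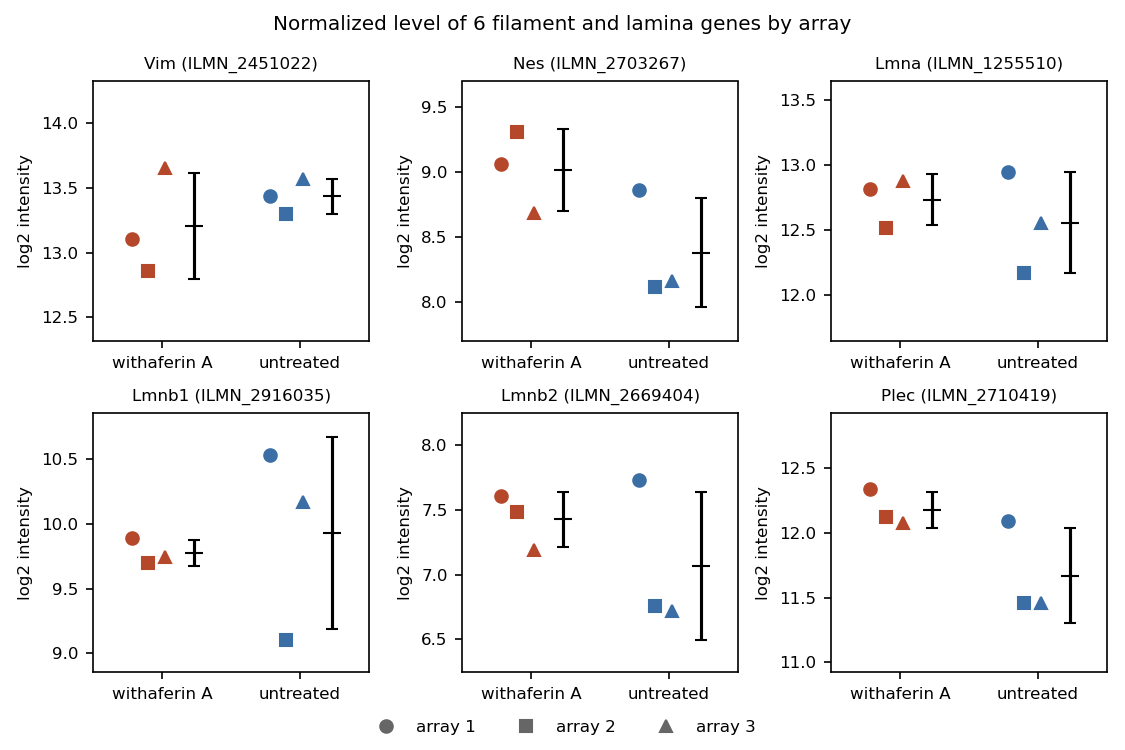
Normalized log2 intensity (y axes, each spanning 2 log2 units) of the probe that stands for each of 6 genes, by group (x axes). Points are arrays, marked by number, and bars give the mean and SD of 3 arrays. In all 6 panels the withaferin A and untreated arrays overlap.

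Vimentin transcript was bright on every array and its groups overlapped. At the probe for its RefSeq transcript (ILMN_2451022), the intensity was 8418.5, 7537.8 and 13014 on withaferin A arrays 1 to 3, against 12493.3, 10258.2 and 12027.7 on untreated arrays 1 to 3. Withaferin A array 3 was the highest of the 6 and the other withaferin A arrays were the lowest. Normalized log2 intensity averaged 13.20 ± 0.41 with withaferin A and 13.43 ± 0.14 in untreated cells (SD, n = 3 each). The log2 change was -0.23 (SE 0.21, 95% interval -0.71 to 0.25, limma adjusted p = 0.543), a fold of 0.853 with an interval of 0.613 to 1.19. A change to under 0.613-fold or over 1.19-fold thus lay outside the interval of this probe. With 1 array left out the change ran between -0.45 (without withaferin A array 3) and -0.06 (without withaferin A array 2), and it was -0.021 with median scaling (adjusted p = 0.961).

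The other Vim probe, ILMN_1232980, is annotated to a cDNA clone sequence and was dim. Its intensity was 101.8, 118.9 and 114.2 with withaferin A, against 136.6, 102.8 and 129.2 in untreated cells. It was detected on all 6 arrays, and after normalization untreated arrays were both the highest and the lowest. Its log2 change was 0.07 (SE 0.22, adjusted p = 0.884), and it was -0.20 without normalization between arrays, -0.17 with array weights, -0.017 without withaferin A array 2 and -0.18 without untreated array 2. The files do not say which stretch of the gene either probe reads.

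Over the 6 arrays, the genes whose centred log2 profile lay closest to that of Vim were Txndc12, Ifngr2 and Fes, by root mean square difference among 9486 other genes. Those differences were 0.054, 0.077 and 0.078 log2 units. Like Vim, all 3 had their lowest value on withaferin A array 2. Their log2 changes of -0.23, -0.31 and -0.21 did not pass either (adjusted p = 0.526, 0.440 and 0.530 with limma).

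Nestin, a large filament protein of progenitor cells that copolymerizes with vimentin, had the smallest adjusted p of the 6 genes. Its brighter probe (ILMN_2703267) read 526.8, 673.6 and 421.3 on withaferin A arrays 1 to 3, against 585.9, 371.2 and 348.2 on untreated arrays 1 to 3. After normalization withaferin A array 3 lay below untreated array 1, so the groups overlapped. The log2 intensity averaged 9.02 ± 0.31 with withaferin A and 8.38 ± 0.42 in untreated cells (SD, n = 3 each). The log2 change was 0.64 (SE 0.24, 95% interval 0.10 to 1.18) and did not pass (adjusted p = 0.144, limma). Without 1 array it ran between 0.49 (without withaferin A array 2) and 0.88 (without untreated array 1), with adjusted p from 0.0612 to 0.356.

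The second Nes probe, ILMN_2904590, read 167.1, 161.1 and 120.5 with withaferin A, against 168.8, 125.1 and 116.3 in untreated cells. Its log2 change of 0.54 (SE 0.27, adjusted p = 0.262) had the same sign. Both probes had untreated arrays 2 and 3 among their low values, and the second had a low withaferin A array 3 as well. Both Nes probes passed in the paired test on the deposited value table (log2 changes 0.55 and 0.32, adjusted p = 0.0276 and 0.0405) and with array weights (0.60 and 0.75, adjusted p = 0.0416 and 0.0343). The genes with the profile closest to Nes were Mrpl16, Mdn1 and Dctd, with differences of 0.056, 0.066 and 0.071 log2 units over 6 arrays. Their log2 changes were 0.62, 0.74 and 0.59, and none passed (adjusted p = 0.165, 0.104 and 0.213 with limma).

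Desmin, the filament protein of muscle, was at the edge of detection. Its probe (ILMN_2836982) read 79.8, 85.7 and 84.6 with withaferin A, against 90.1, 90.7 and 74.3 in untreated cells. It was detected on 1 withaferin A array and 1 untreated array and was not tested.

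**Figure D2:**
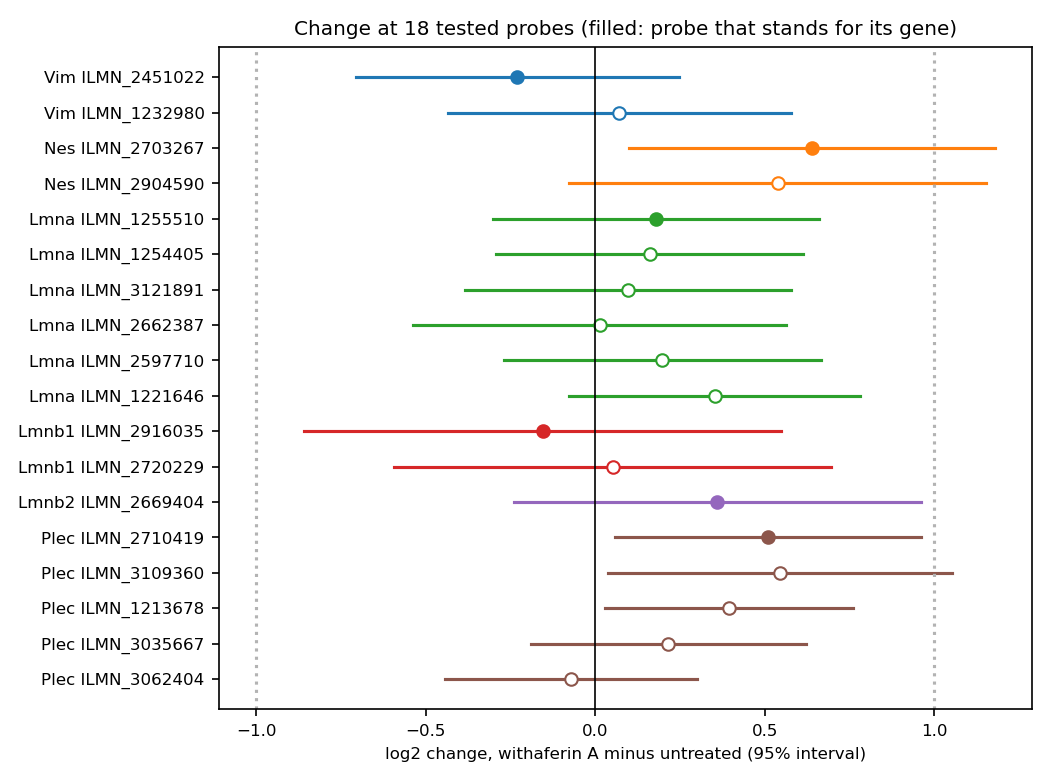
Log2 change, withaferin A minus untreated (x axis), with its 95% limma interval at each of the 18 tested probes (y axis), where filled points mark the probe that stands for its gene and dotted lines a 2-fold change. Intervals of 15 of the 18 probes lie within a 2-fold change either way.

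Lmna, which encodes lamins A and C, was measured by 6 probes that were all detected on all 6 arrays. At the probe with the highest mean (ILMN_1255510), the intensity was 6674.5, 5976.6 and 7057.5 with withaferin A, against 8913.6, 4901.9 and 5821.5 in untreated cells. Untreated arrays were both the highest and the lowest. The log2 intensity averaged 12.73 ± 0.20 with withaferin A and 12.56 ± 0.39 in untreated cells (SD, n = 3 each). The log2 change was 0.18 (SE 0.21, 95% interval -0.30 to 0.66, limma adjusted p = 0.651).

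Across the 6 Lmna probes the log2 changes ran from 0.013 to 0.35, all positive, with adjusted p from 0.291 to 0.983 (limma). The probes are annotated to 2 transcripts of the gene, 4 to 1 transcript (0.013 to 0.20) and 2 to the other (0.10 and 0.35). Probes of a gene share its RNA and are not replicates. Untreated array 2 was the lowest of the 6 arrays at 5 of the Lmna probes. Without it, 1 of the 6 changes stayed positive, at ILMN_1221646, and the other 5 ran from -0.28 to -0.014, none of them past the threshold. The change at ILMN_1221646 was 0.35 (SE 0.19, adjusted p = 0.291) from intensities of 1149.7, 983.1 and 857.1 with withaferin A, against 1165.1, 874.3 and 762 in untreated cells. It passed in the paired test on the deposited value table (adjusted p = 0.0195) and with array weights (adjusted p = 0.0422).

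Lmnb1, which encodes the farnesylated lamin B1, spread widely among untreated arrays. Its brighter probe (ILMN_2916035) read 893.3, 866.6 and 818.2 with withaferin A, against 1737.6, 679.7 and 1183.2 in untreated cells. The 3 withaferin A arrays lay close together, inside the range of the untreated ones. The log2 intensity averaged 9.78 ± 0.10 with withaferin A and 9.93 ± 0.74 in untreated cells (SD, n = 3 each). The log2 change of -0.16 (SE 0.31, 95% interval -0.86 to 0.55, limma adjusted p = 0.805) was 0.14 without untreated array 1 and -0.57 without untreated array 2. The dim second probe, ILMN_2720229, had a change of 0.05 (SE 0.29, adjusted p = 0.937).

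Lmnb2, which encodes lamin B2, had 1 tested probe (ILMN_2669404). It read 223.3, 221.1 and 187.5 with withaferin A, against 296.2, 179.8 and 166.1 in untreated cells. Here too untreated arrays were the highest and the lowest. The log2 change was 0.36 (SE 0.27, 95% interval -0.24 to 0.96, limma adjusted p = 0.444), and it was 0.69 without untreated array 1, 0.20 without untreated array 2, 0.19 without untreated array 3 and 0.063 without normalization between arrays. The other Lmnb2 probe read 82 to 84.8 with withaferin A and 81.7 to 87.1 in untreated cells, was detected on 0 withaferin A arrays and 1 untreated array, and was not tested.

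**Figure D3:**
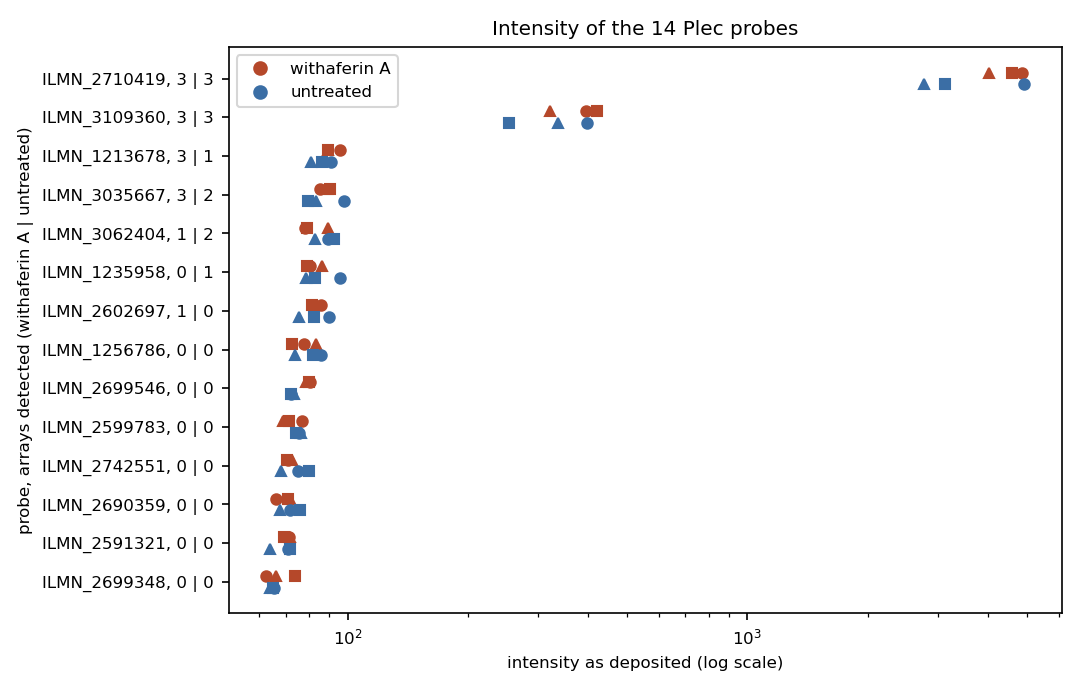
Intensity as deposited (x axis, log scale) of the 14 Plec probes (y axis), with the number of arrays on which each was detected, and points for arrays of the withaferin A and untreated groups. Intensities at ILMN_2710419 and ILMN_3109360 lie apart from the other 12 probes, which read between 62.7 and 98.

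Plectin, a giant linker that binds filaments to hemidesmosomes, actin and the nuclear envelope, is made from many transcripts that differ at their 5′ ends, and 14 probes carry its symbol. Of these, 2 were detected on all 6 arrays, 3 more passed the detection filter, and 7 were detected on no array. At ILMN_2710419 the intensity was 4853.1, 4601.7 and 4015.7 with withaferin A, against 4920.6, 3123.8 and 2769.7 in untreated cells. Untreated arrays 2 and 3 were low and untreated array 1 fell among the withaferin A arrays after normalization. The log2 intensity averaged 12.18 ± 0.14 with withaferin A and 11.67 ± 0.36 in untreated cells (SD, n = 3 each). The log2 change of 0.51 (SE 0.20, 95% interval 0.06 to 0.96, a fold of 1.42) did not pass (limma adjusted p = 0.161).

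The other Plec probe detected on all arrays, ILMN_3109360, read 393.8, 421.2 and 320.6 with withaferin A, against 397.1, 253.7 and 336.4 in untreated cells. Its log2 change was 0.54 (SE 0.23, adjusted p = 0.178). Untreated array 2 was its lowest value, and withaferin A array 3 lay just below untreated array 1. Both probes passed in the paired test on the deposited value table (log2 changes 0.50 and 0.45, adjusted p = 0.0114 and 0.0461) and with array weights (0.57 and 0.60, adjusted p = 0.0337 and 0.0318). With 1 array left out, the first ran from 0.40 to 0.72 and the second from 0.30 to 0.70, and neither passed.

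Of the 3 dim Plec probes that were tested, ILMN_1213678 read 95.8, 89.1 and 89.3 with withaferin A, against 90.9, 86.5 and 81.1 in untreated cells. After normalization it was the 1 of 18 tested probes of these genes whose groups did not overlap, against 29.1% of all tested probes. Its log2 change of 0.39 (SE 0.16) did not pass (limma adjusted p = 0.176). The probe was detected on 3 withaferin A arrays and 1 untreated array, so it was tested only through the group where it was higher. The change was 0.17 in the paired test on the value table and when no background was corrected, 0.20 with an offset of 50, and it passed with array weights (0.58, adjusted p = 0.0179). The other 2 tested probes had changes of 0.21 and -0.07 (adjusted p = 0.501 and 0.830 with limma), and the second was 0.12 with median scaling. The 9 Plec probes that were not tested read 62.7 to 86.2 with withaferin A and 63.8 to 96 in untreated cells.

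**Figure D4:**
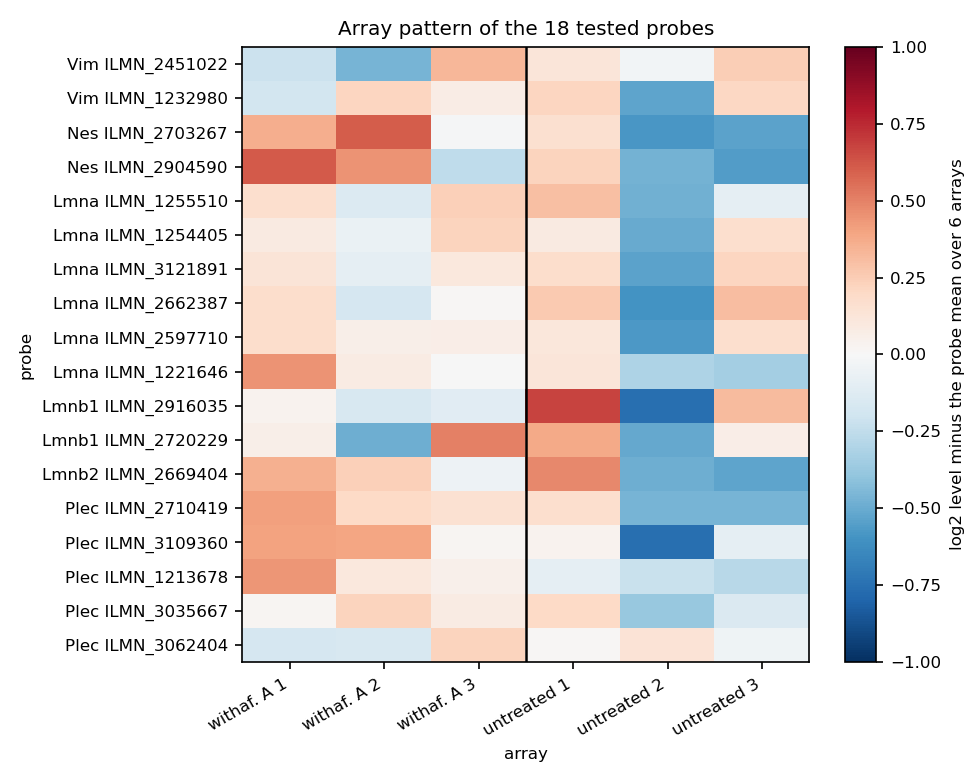
Normalized log2 level minus the probe mean over 6 arrays (colour) for the 18 tested probes (y axis) on the 3 withaferin A and 3 untreated arrays (x axis). Untreated array 2 is the lowest array at 12 of the 18 probes.

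Several of these genes shared a low untreated array. Untreated array 2 was the lowest of the 6 arrays at 12 of the 18 tested probes, while it was the lowest at 17.9% of all tested probes. By gene it was the lowest at 4 of the 6 probes that stand for a gene (Nes, Lmna, Lmnb1 and Plec). The SD was larger among untreated arrays than among withaferin A arrays at 13 of 18 probes, against 54.3% of all tested probes. Probes of a gene are not independent, and these counts carry no test. Of the 18 changes 15 were positive and 3 negative, while without untreated array 2 there were 8 positive and 10 negative. The 95% intervals of 5 of the 6 genes lay within a 2-fold change either way, the exception being Nes, whose upper bound was 1.18 on the log2 scale.

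The other genes of filaments, linkers and the nuclear lamina were described by 9 lists, of which 60 genes were measured. Of these 1 was higher, 0 were lower and 59 did not pass, so that 1.67% were called, against 6.83% of all genes tested. At an unadjusted p under 0.05 there were 11 of 60, against 26.0%. The paired test on the deposited value table called 5 of them higher and 9 lower.

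The gene that rose was Tmem201, which encodes an inner nuclear membrane protein involved in nuclear positioning. Its log2 intensity was 9.45, 9.57 and 9.19 on withaferin A arrays 1 to 3, against 8.83, 8.46 and 8.35 on untreated arrays 1 to 3, so every withaferin A array was above every untreated one. The log2 change was 0.85 (SE 0.18, a fold of 1.81, limma adjusted p = 0.0287). It did not pass when withaferin A array 1, withaferin A array 2, untreated array 2 or untreated array 3 was left out (adjusted p = 0.115, 0.0992, 0.0735 and 0.102), without normalization between arrays (adjusted p = 0.0802) and with no filter on dim probes (adjusted p = 0.0825).

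Among 12 measured partners of the lamina in the inner nuclear membrane, 1 (Tmem201) rose and 11 did not pass, with a median log2 change of -0.021. Of 6 genes of the LINC complex, which couples the nucleus to the cytoskeleton, 0 passed (median -0.30). Syne4, which encodes the outer nuclear membrane protein nesprin-4, had a log2 change of -1.24 (SE 0.32, adjusted p = 0.0554). Its log2 intensity was 7.63, 7.40 and 8.18 with withaferin A, against 8.56, 9.76 and 8.62 in untreated cells, with no overlap. It passed without withaferin A array 3 (adjusted p = 0.0292), without normalization between arrays (adjusted p = 0.0113), in the paired test on the deposited value table (adjusted p = 0.0193), with the replicate number as a block (adjusted p = 0.0423) and with array weights (adjusted p = 0.00561). Of 5 enzymes that process the farnesylated tail of lamins 0 passed (median 0.11). Icmt, the carboxyl methyltransferase of that pathway, had a change of 0.54 (SE 0.17, adjusted p = 0.0973). Its other tested probe, a dimmer one, had a change of 0.68 (adjusted p = 0.0513 with limma). The brighter Icmt probe passed in the value table (adjusted p = 0.0107) and with array weights (adjusted p = 0.0394).

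Of 4 measured plakins beside plectin 0 passed (median -0.36). Among them, Dst had a log2 change of -0.42 at the brightest of its 7 tested probes and -0.09 to 0.27 at the others. Ppl, the plakin periplakin of the cornified envelope and desmosomes, had a log2 change of -0.69 (SE 0.23, adjusted p = 0.105), beside -0.58 and -0.34 at its other probes. It passed without normalization between arrays (adjusted p = 0.0133), in the value table (adjusted p = 0.00298), with the replicate number as a block (adjusted p = 0.0282) and with array weights (adjusted p = 0.0218). None of 5 measured desmosome genes passed (median 0.15). There the smallest p belonged to Pkp4, a plakophilin of junctions (log2 change -0.20, adjusted p = 0.552). None of 5 hemidesmosome genes passed either (median 0.20), and Col17a1, their transmembrane collagen, had a change of 0.43 (adjusted p = 0.179). Col17a1 was dim and was detected on 3 withaferin A arrays and 2 untreated arrays. For Col17a1 the change was 0.18 in the value table and 0.19 without background correction, and it passed with array weights (0.67, adjusted p = 0.0167). Of the other type III and IV filament genes, 2 of 10 were measured, and neither passed. The smaller p was that of Synm, which encodes synemin, a partner of vimentin and desmin (0.27, adjusted p = 0.429).

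Of 12 measured genes that mark the transition between epithelial and mesenchymal states, 0 passed (median -0.09), and Ocln, which encodes the tight junction protein occludin, had a log2 change of -0.71 (adjusted p = 0.124). Ocln was dim and was detected on 1 withaferin A array and 3 untreated arrays, so it was tested only through the group where it was higher. Its change was -0.32 without background correction, -0.38 with an offset of 50 and -0.31 in the value table. Ocln passed without withaferin A array 3 (adjusted p = 0.0437), without normalization between arrays (adjusted p = 0.0393), in the value table (adjusted p = 0.0463) and with array weights (adjusted p = 0.0178). Of 9 kinases, phosphatases and a protease that act on filaments, 0 passed (median -0.06). Prkca, which encodes protein kinase C alpha, had a change of -0.57 (SE 0.20, adjusted p = 0.116 with limma). Its other tested probe had a smaller change of -0.24 (adjusted p = 0.426 with limma). The brighter probe passed without normalization between arrays (adjusted p = 0.0493), in the value table (adjusted p = 0.00763) and with array weights (adjusted p = 0.0171).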

How the data were processed

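Biotin-labelled total RNA was hybridised to an Illumina mouse bead array, per the labels. The authors deposited probe intensity values whose quantiles differ between arrays, and they were treated as raw. The detection values deposited by the authors are headed as p-values, but they are fractions that increased with intensity. Against that heading, they were taken as 1 minus the detection p. The value table deposited by the authors holds log2 values centred within same-numbered pairs (columns mirror to within 1.00e-06, medians -0.00265 to 0.00265). Its differences within pairs correlated at 0.961 to 0.966 with those used here, which sets direction. Raw log2 ratios of the same pairs had slopes of 1.01 to 1.11 on those differences. The normalization of the value table is unknown. Scanner software was not named in the sources.

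Normexp on inferred negative controls (offset 16) was followed by quantile normalization and log2 (limma 3.58.1, R 4.3.3). A detection p under 0.05 on at least 3 arrays left 19077 of 45281 probes for lmFit and eBayes (two-sided, Benjamini-Hochberg, threshold 0.05). Probes with 1 symbol numbered 34885 (34807 found by gene ID in a GRCm38.p6 table, 0 symbols changed), 18 had several and 10378 none listed. The tested probe with the highest mean stood for a gene. On data simulated from the 19077 probes of this comparison, limma called 86 of 100 probes changed 2-fold, 99 of 100 changed 4-fold and 12 of 18877 unchanged. The simulated errors were normal and independent between arrays and probes, with variances shrunken by limma. Shifts shared by the probes of an array were not simulated, so these shares can overstate recovery in the real arrays. The genes and lists were chosen with earlier results of these data known. Named genes are the 8 above, for each list up to 3 called genes by size of change or else that with the smallest p, and the 3 closest profiles (clone identifiers skipped) to Vim and to the gene of smallest adjusted p. The number of arrays limits precision. Alternatives covered background, offset, normalization, filter, replicate block, array weights, variance model, the value table, probes per gene and leaving out each array.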

Additional observations from a re-analysis of the deposited data

How the results depend on the processing

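Of the 8 vimentin, lamin and linker genes, 6 were tested, or 7 with no filter on dim probes. The count of these genes called was 0 whichever of the 6 arrays was left out, and in 10 of the 12 alternatives that kept all arrays. In the paired test on the deposited value table and with array weights it was 2 (Nes and Plec, both higher), where 2687 and 2150 genes were called in all, against 666. The array weights came from an estimate that stopped before it converged. The cause of these differences was not tested. For the 60 list genes, the main count was 1 higher and 0 lower. It was 0 higher and 7 lower without normalization between arrays, where 17.3% of all genes were called (160 higher and 1528 lower), 2 higher with median scaling, 5 higher and 9 lower in the value table, 0 higher with no filter on dim probes, and 5 higher and 4 lower with array weights. With 1 array left out it ran from 0 to 1 higher and from 0 to 2 lower. With the replicate number as a block 2 were higher and 4 lower, and 1023 genes in all were called. Same-numbered arrays had correlations of deviations of 0.27, -0.04 and 0.32 across probes, and differently numbered ones from -0.39 to 0.27. These values do not settle whether the numbers pair the arrays. The labels do not tie the numbers to passages, so the main fit was not paired. With the block, 0 of the 6 tested genes were called.

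Signs that changed belonged to values that did not pass. Without normalization between arrays (median over all genes -0.23) the log2 changes were -0.20 for Vim ILMN_1232980, -0.024 for Lmna ILMN_3121891, -0.12 for Lmna ILMN_2662387, -0.18 for Lmnb1 ILMN_2720229 and -0.025 for Synm. With array weights Vim ILMN_1232980 was at -0.17, and with median scaling Plec ILMN_3062404 was at 0.12. With 1 array left out, the ranges were -0.18 to 0.20 for Vim ILMN_1232980, -0.014 to 0.37 for Lmna ILMN_1255510, -0.050 to 0.28 for ILMN_1254405, -0.15 to 0.23 for ILMN_3121891, -0.28 to 0.17 for ILMN_2662387 and -0.040 to 0.33 for ILMN_2597710. For Lmnb1 they were -0.57 to 0.14 at ILMN_2916035 and -0.19 to 0.31 at ILMN_2720229. The slide block was not run, since the headers name no slide. No added alternative was used.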
